A study of Bos taurus with 48 samples.

Results

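The genes described here encode the electron transport chain and the ATP synthase of the mitochondrion. They are 64 Ensembl ids with 62 symbols, out of 24616 genes in the count tables. They were taken from the study's table of 1092 genes that differed between LPHE and LPLE heifers at 12 months, as every id whose symbol starts with NDUF, SDH, UQCR, COX or ATP5 or is CYCS or CYC1. The energy contrast of the LP heifers at 12 months therefore chose them, and that contrast is given below as a description. Its calls and FDR values only show where the threshold of the model used here lay. Complex I had 27 ids, complex II 4, complex III 8, cytochrome c 2, complex IV 15 and complex V 8. The counts are from RNA of subcutaneous adipose tissue, biopsied lateral to the tail base of 24 Norwegian Red heifers, which each gave a biopsy at the age of 12 months and another in gestation month 7, or 48 samples in all. The 4 diets combined a low (LP) or high (HP) protein level with a low (LE) or high (HE) energy level, where HE heifers had free access to grass silage and LE heifers a restricted ration of silage mixed with wheat straw. Each diet (LPHE, LPLE, HPHE, HPLE) had 6 heifers, of which 3 were bred for high milk yield (HMY) and 3 for low occurrence of clinical mastitis (LCM). The diets were fed until pregnancy was established and all heifers then had the same low-energy feed, so at gestation month 7 the energy level names an earlier diet. Pregnancy came later in LE than in HE heifers. The earlier diet, the age at the second biopsy and the time between the 2 biopsies therefore cannot be told apart.

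In the respiratory chain, complex I takes electrons from NADH and complex II from succinate, and both hand them to ubiquinone. Complex III passes them on to cytochrome c, a small mobile protein, and complex IV transfers them to oxygen. Complexes I, III and IV pump protons across the inner membrane, and complex V, the ATP synthase, uses the gradient to make ATP. In adipocytes this machinery supports lipid synthesis and storage as well as the release of fatty acids. Most subunits are encoded in the nucleus, while a few core subunits, COX1 among the members, are encoded in the mitochondrial genome.

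Among complex I members, NDUFV1, NDUFS1, NDUFS3 and NDUFS7 are core subunits of the arm that binds NADH and carries the iron-sulfur clusters. The 18 accessory subunits are NDUFA1, NDUFA5, NDUFA6, NDUFA8, NDUFA9, NDUFA10, NDUFA12, NDUFAB1 (also the mitochondrial acyl carrier protein), NDUFB1, NDUFB3, NDUFB5, NDUFB6, NDUFB8, NDUFB9, NDUFC1, NDUFS4, NDUFS5 and NDUFV3, and NDUFAF1, NDUFAF5, NDUFAF6 and NDUFAF7 help to assemble the complex. Complex II was represented by its flavoprotein SDHA, its membrane anchors SDHC and SDHD and the assembly factor SDHAF4. Complex III was represented by the Rieske iron-sulfur protein UQCRFS1, cytochrome c1 (CYC1), the core proteins UQCRC1 and UQCRC2 and the small subunits UQCRB, UQCRQ, UQCR10 and UQCR11. Complex IV included COX1, the catalytic subunit, the nuclear subunits COX4I1, COX5A, COX5B, COX6A1, COX6B1, COX6C, COX7A2, COX7C, COX8A and NDUFA4, and COX7A2L, COX15 and COX19, which act in supercomplex formation, heme A synthesis and copper delivery. Complex V included ATP5A1, ATP5B and ATP5C1 of the catalytic head, ATP5F1, ATP5G1, ATP5G3 and ATP5J2 of the membrane part, and ATP5S, a coupling factor. CYCS and COX7C each had a pair of ids. How the counting divided reads between near-identical copies is not known, so the values of these 4 ids are uncertain.

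Between 14815595 and 61027456 reads per sample were counted on genes (median 37909640). The lowest count of any member in any sample was 35 reads, for NDUFC1. NDUFA12 had as few as 38 and CYCS (ENSBTAG00000022613) as few as 56. For such members counting noise adds to the spread between heifers, while for members with many reads that spread limited the precision. All 64 members passed the filter on low counts in each analysis. Within a diet and sampling time every pair of samples differed by far more than counting noise (lowest chi-square per degree of freedom 38.6 over 120 pairs), and each sample was counted as a replicate. Levels are given as TMM-normalized CPM, a count divided by the total of its library and scaled up, and compare the same gene between samples. The counts hold no gene lengths, so no result compares the levels of different genes. Mean CPM served only to choose members whose values in every diet are given. Log2 fold changes are given with their standard error (SE) from the model, and a gene was called at a false discovery rate (FDR) below 0.1, or below 0.05 for the energy contrast over both protein levels. In biopsies of whole tissue, fewer cells of a type and less RNA per cell cannot be told apart.

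The summed level of the members had a higher median in HE than in LE heifers at 12 months and a lower one at gestation month 7, within each protein level. Summed over the 63 members encoded in the nucleus, the level at 12 months had a median of 10100 CPM in LPHE heifers (range 7120 to 11300), 6320 in LPLE (5080 to 7850), 8500 in HPHE (6680 to 10900) and 7030 in HPLE heifers (5330 to 9280). At gestation month 7 the medians were 4330 CPM in LPHE (3840 to 6060), 5860 in LPLE (4560 to 7360), 4170 in HPHE (3890 to 4360) and 5420 in HPLE heifers (4620 to 6320). Within each protein level the energy levels thus changed places between the sampling times, where the LP heifers at 12 months are the contrast that chose the members. At gestation month 7 every HPHE heifer was below every HPLE heifer, while LPHE and LPLE heifers overlapped.

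**Figure D1:**
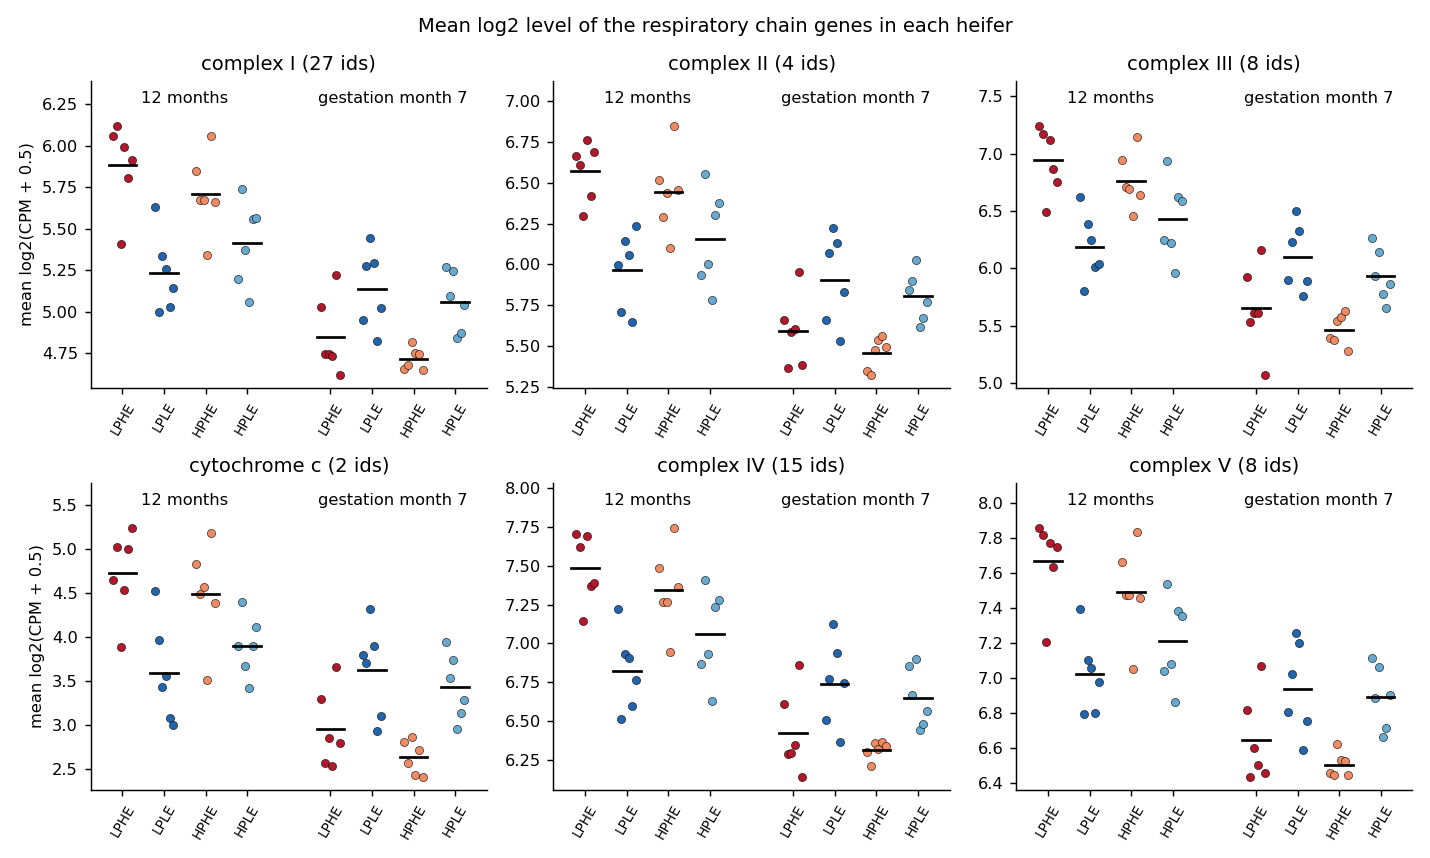
Mean log2(CPM + 0.5) of the members of each complex in each heifer, by diet and sampling time. Each point is 1 heifer, the line is the mean of 6 heifers, and each panel has its own axis, which does not start at 0. In every complex and within each protein level the mean of the HE diet stood above that of the LE diet at 12 months and below it at gestation month 7. The LP contrast at 12 months chose the members. In HP heifers at 12 months all 64 members overlapped between the diets.

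In LP heifers at 12 months, the contrast that chose them, all 64 members had a higher mean level in HE heifers. Log2 fold changes ranged from 0.38 for COX7A2L to 1.25 for CYCS (ENSBTAG00000023823), with a median of 0.66, while the median of all genes tested was -0.02. In the model used here 58 members were called higher, beside 4.45% of all 13339 genes tested, and nothing is read from this count. Just inside the threshold lay NDUFS3 (log2 fold change 0.42, FDR 0.095), NDUFB9 (0.47, FDR 0.0977) and NDUFB1 (0.56, FDR 0.0995). Just outside it lay SDHA (0.57, FDR 0.102), COX15 (0.49, FDR 0.108), COX7A2L (0.38, FDR 0.123), COX4I1 (0.45, FDR 0.124), NDUFA12 (0.63, FDR 0.13) and NDUFS7 (0.57, FDR 0.146), which are in the study's table but were not called here by the edgeR likelihood ratio test. For 11 members the lowest LPHE heifer was above the highest LPLE heifer. In CPM without TMM this was so for 0.48% of all genes, and nothing is read from this count either. The 11 members were NDUFA1, NDUFA6, NDUFB3, NDUFS5, SDHC, UQCR10, COX1, COX6C, COX7A2, COX7A2L and ATP5F1. The median log2 fold change was 0.65 in complex I, 0.57 in complex II, 0.72 in complex III, 1.11 for cytochrome c, 0.64 in complex IV and 0.61 in complex V.

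The CYCS id ENSBTAG00000023823, which encodes cytochrome c, had the highest fold change. At 12 months its lowest, median and highest levels were 35.3, 65.6 and 87.9 CPM in LPHE heifers and 13.8, 23.7 and 53.9 CPM in LPLE heifers. The other CYCS id, ENSBTAG00000022613, had 5.55, 10.9 and 15.5 CPM in LPHE heifers and 3.71, 4.71 and 9.11 CPM in LPLE heifers. For both ids the lower LPHE heifers fell within the range of the LPLE heifers. COX1 (ENSBTAG00000043561) of the mitochondrial genome ranged from 38500 to 52900 CPM (median 44500) in LPHE and from 19800 to 34400 CPM (median 32600) in LPLE heifers, without overlap. For SDHA, which oxidizes succinate, the levels were 681, 834 and 999 CPM in LPHE heifers and 373, 561 and 704 CPM in LPLE heifers. SDHA overlapped between the diets only at the edges of its ranges. For UQCRC1, a core protein of complex III, the levels were 249, 382 and 460 CPM in LPHE and 152, 239 and 290 CPM in LPLE heifers. ATP5B, the catalytic beta subunit of complex V, had 717, 1060 and 1190 CPM in LPHE and 592, 693 and 898 CPM in LPLE heifers. Its lowest LPHE value came from heifer 12, which stood apart from the other LPHE heifers. The levels of COX7C (ENSBTAG00000039555), a small subunit of complex IV, were 14.5, 34 and 55.4 CPM in LPHE and 8.04, 19.3 and 26.1 CPM in LPLE heifers. Those of COX7C (ENSBTAG00000040564) were 44.3, 64.1 and 89.4 CPM in LPHE and 29.4, 36.9 and 50.8 CPM in LPLE heifers. Both COX7C ids overlapped between the diets.

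The HP heifers at 12 months were not in the contrast that chose the members, although the model shares its dispersions with it. The likelihood ratio test of edgeR called 0 of 64 members between HPHE and HPLE heifers, beside 0.12% of all genes. An unadjusted p below 0.05 was seen for 11 members, beside 965 of all 13339 genes. The quasi-likelihood F test and DESeq2 also called 0 members, beside 0 and 25 of all genes, with 13 and 17 members at an unadjusted p below 0.05. The log2 fold change was positive for 63 members, with a median of 0.27 against -0.01 for all genes. CYCS (ENSBTAG00000023823) had the highest value, 0.79 ± 0.297 (SE, FDR 0.479), with 25.2, 56.6 and 95.1 CPM in HPHE heifers and 24, 30.8 and 49.7 CPM in HPLE heifers (exact permutation test, unadjusted, n = 6 per diet, two-sided p = 0.0368). NDUFA12, an accessory subunit, had the lowest, -0.06 ± 0.247 (FDR 0.983), with 4.4, 5.26 and 6.8 CPM in HPHE heifers and 3.94, 5.81 and 6.86 CPM in HPLE heifers. UQCRC1 had 284, 347 and 421 CPM in HPHE heifers and 197, 235 and 379 CPM in HPLE heifers (exact permutation test, unadjusted, p = 0.0238). No member was without overlap between the diets, beside 0.18% of all genes that were higher in every HPHE than in any HPLE heifer in CPM without TMM. COX1 had 36100, 40600 and 71800 CPM in HPHE heifers and 19400, 38900 and 47900 CPM in HPLE heifers (exact permutation p = 0.173). ATP5B had 643, 898 and 1060 CPM in HPHE heifers and 605, 753 and 1010 CPM in HPLE heifers (exact permutation p = 0.173). The other members with values in every diet were higher at the median in HPHE heifers too. SDHA had 577, 811 and 1000 CPM in HPHE heifers and 374, 616 and 933 CPM in HPLE heifers. CYCS (ENSBTAG00000022613) had 4.52, 8.8 and 13.2 CPM in HPHE heifers and 4.17, 6.57 and 8.26 CPM in HPLE heifers. The median levels of COX7C were 38.1 CPM in HPHE heifers and 25.2 CPM in HPLE heifers for ENSBTAG00000039555, and 57 and 40.5 CPM for ENSBTAG00000040564.

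Gestation month 7 was the readout that the choice of members did not use, although it came from the same heifers. In LP heifers 7 of 64 members were lower in HE than in LE heifers, beside 0.739% of all 13403 genes called lower, and none was higher. The log2 fold change was negative for 62 members, with a median of -0.34 against 0.01 for all genes. An unadjusted p below 0.05 was seen for 33 members, beside 1335 of all 13403 genes. The called members came from complexes I to IV and cytochrome c. CYCS (ENSBTAG00000023823) had the lowest log2 fold change, with 10.5, 13.2 and 28.1 CPM in LPHE and 14.5, 31 and 47.2 CPM in LPLE heifers (-0.93 ± 0.246, FDR 0.0446). COX1 had 12500, 14100 and 17000 CPM in LPHE and 15600, 25500 and 33100 CPM in LPLE heifers (-0.75 ± 0.207, FDR 0.051). In complex III, CYC1 (ENSBTAG00000012232), the heme protein that reduces cytochrome c, had 47.6, 84.6 and 120 CPM in LPHE and 104, 124 and 181 CPM in LPLE heifers (-0.60 ± 0.165, FDR 0.0506). UQCRFS1 (ENSBTAG00000046786), which passes electrons to CYC1, had 54.5, 64.9 and 95.1 CPM in LPHE and 71.4, 99.9 and 148 CPM in LPLE heifers (-0.65 ± 0.184, FDR 0.0606). In complex I, NDUFA10 (ENSBTAG00000003279), an accessory subunit of the membrane arm, had 49.5, 53.1 and 75.3 CPM in LPHE and 60.3, 94.4 and 118 CPM in LPLE heifers (-0.64 ± 0.18, FDR 0.0606). NDUFV1 (ENSBTAG00000021776), the subunit that binds NADH, had 61.9, 87.8 and 116 CPM in LPHE and 95.6, 131 and 171 CPM in LPLE heifers (-0.54 ± 0.156, FDR 0.0707). SDHA (ENSBTAG00000046019) had 267, 329 and 453 CPM in LPHE and 369, 513 and 633 CPM in LPLE heifers (-0.56 ± 0.166, FDR 0.0807). All 7 called members overlapped between the diets, with 1 or more LPHE heifers in the lower range of the LPLE heifers. In CPM without TMM, 0.0821% of all genes were lower in every LPHE than in any LPLE heifer.

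By exact permutation test (two-sided, n = 6 per diet, unadjusted, among 40 such tests), p was 0.0108 for COX1, 0.0152 for NDUFA10 and NDUFV1, 0.0173 for SDHA, 0.0195 for CYC1, 0.0216 for UQCRFS1 and 0.0411 for CYCS (ENSBTAG00000023823), and 0.00216 is the lowest p attainable with these group sizes. COX19, a copper chaperone for the assembly of complex IV, had the highest log2 fold change, 0.11 ± 0.143 (FDR 0.892), with 119, 169 and 193 CPM in LPHE and 121, 145 and 174 CPM in LPLE heifers. No complex V member was called in LP heifers. These calls were not firm. The quasi-likelihood F test called 0 members (38 at an unadjusted p below 0.05), and also 0 of all genes. DESeq2 called 12 members, beside 423 of all genes. Without LPLE heifer 8, 10 or 14 or LPHE heifer 12, 16 or 24 the count was 0, without LPHE heifer 5 it was 1 and without LPLE heifer 18 it was 14. NDUFV1 and SDHA also lost their call without LPLE heifer 22.

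In HP heifers at gestation month 7, 8 of 64 members were lower in HE than in LE heifers, beside 0.783% of all genes called lower, and none was higher. All 64 log2 fold changes were negative, with a median of -0.42 against 0.01 for all genes. An unadjusted p below 0.05 was seen for 44 members, beside 904 of all 13403 genes. The called members lay in complexes I, III, IV and V and cytochrome c. CYCS (ENSBTAG00000023823) had 8.97, 12.1 and 14 CPM in HPHE heifers and 14.9, 21.4 and 36.1 CPM in HPLE heifers (log2 fold change -0.97 ± 0.246, FDR 0.0193). CYCS (ENSBTAG00000022613) had 2.22, 2.6 and 3.15 CPM in HPHE heifers and 3.41, 4.66 and 5.91 CPM in HPLE heifers (-0.83 ± 0.244, FDR 0.0797). UQCRFS1 had the lowest FDR of all members, with 49.9, 57 and 64.5 CPM in HPHE heifers and 68.1, 95.3 and 134 CPM in HPLE heifers (-0.74 ± 0.184, FDR 0.0155). CYC1 had 67, 74.9 and 82 CPM in HPHE heifers and 89.8, 111 and 140 CPM in HPLE heifers (-0.59 ± 0.165, FDR 0.0481). UQCRB (ENSBTAG00000001521), a small subunit near the ubiquinone site of complex III, had 34.8, 39 and 45.7 CPM in HPHE heifers and 43.3, 55.2 and 69.5 CPM in HPLE heifers (-0.53 ± 0.157, FDR 0.0797). Of these members UQCRB alone overlapped between the diets. In complex IV, COX5A (ENSBTAG00000017267) had 36.6, 39.7 and 46.7 CPM in HPHE heifers and 48.7, 55.9 and 76.6 CPM in HPLE heifers (-0.57 ± 0.169, FDR 0.0806). In complex V, ATP5G3 (ENSBTAG00000002944), which encodes the c subunit of the rotor ring, had 111, 112 and 128 CPM in HPHE heifers and 134, 171 and 220 CPM in HPLE heifers (-0.58 ± 0.171, FDR 0.0797). NDUFAB1 (ENSBTAG00000006391) had 15.2, 16.6 and 20.5 CPM in HPHE heifers and 20.8, 24.2 and 33.1 CPM in HPLE heifers (-0.58 ± 0.174, FDR 0.0944).

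For 16 members all 6 HPHE heifers were below all 6 HPLE heifers, beside 0.515% of all genes in CPM without TMM. Beside NDUFAB1, CYC1, UQCRFS1, both CYCS ids, COX5A and ATP5G3, these were NDUFB5, NDUFB6, NDUFB9, NDUFS3, NDUFV1, COX5B, COX6A1, NDUFA4 and ATP5F1. The exact permutation test gave p = 0.00433 for UQCRB, COX7C (ENSBTAG00000040564) and ATP5B (two-sided, unadjusted). For COX1 the exact permutation p was 0.0844, with 11700, 16100 and 17500 CPM in HPHE heifers and 12200, 20600 and 22700 CPM in HPLE heifers. SDHA had 254, 319 and 347 CPM in HPHE heifers and 318, 411 and 501 CPM in HPLE heifers (exact permutation p = 0.00866). COX19 again had the highest log2 fold change, -0.12 ± 0.143 (FDR 1). Of the called members CYC1, UQCRFS1 and CYCS (ENSBTAG00000023823) were called at both protein levels, which is 42.9% of those called in LP and 37.5% of those called in HP heifers. The quasi-likelihood F test called 0 members in HP heifers (52 at an unadjusted p below 0.05), and also 0 of all genes. DESeq2 called 10 members, beside 173 of all genes. Without HPLE heifer 1 the count was 0, without HPLE heifer 7 it was 1, without HPHE heifer 2, 19 or 23 or HPLE heifer 9 or 21 it was 2, without HPHE heifer 11 it was 3, without HPHE heifer 6 it was 4 and without HPHE heifer 15 it was 5, while it was 17 without HPLE heifer 13 and 13 without HPLE heifer 17. UQCRFS1 lost its call when HPLE heifer 1 was left out and kept it without any other single HP heifer. Summed skeletal muscle genes (ACTA1, CKM, MYH2 and MYH7) were above 10 CPM in 2 HPHE libraries and 1 HPLE library of gestation month 7, and 2 members remained called without the libraries above this level, an alternative chosen after the data were seen.

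Over both protein levels 32 of 64 members were lower in HE heifers at gestation month 7 at an FDR below 0.05, beside 2.66% of all genes called lower, and none was higher. All 64 log2 fold changes were negative, with a median of -0.38. The members called were 12 of 27 in complex I, 1 of 4 in complex II, 6 of 8 in complex III, both cytochrome c ids, 6 of 15 in complex IV and 5 of 8 in complex V. None of the 8 assembly factors was called by this test, although 3 had an unadjusted p below 0.05, beside 2165 of all 13403 genes. Cytochrome c showed the lowest median log2 fold change, -0.84, followed by complex III (-0.45), complex IV (-0.39), complex V (-0.38), complex I and complex II (both -0.32). CYCS (ENSBTAG00000023823) was lower in HE than in LE heifers by 0.95 on the log2 scale (SE 0.174, FDR 1.79e-05) and UQCRFS1 by 0.70 (SE 0.13, FDR 2.92e-05). In complex I, NDUFV1 had the smallest p and was lower by 0.50 (SE 0.11, FDR 0.000807). In complex II the called member was SDHA, which was lower by 0.50 (SE 0.117, FDR 0.00166). COX5A, a nuclear subunit of complex IV, was lower by 0.52 (SE 0.119, FDR 0.00138), and ATP5G3 of complex V by 0.51 (SE 0.121, FDR 0.00245). COX19 had the value nearest to 0, a log2 fold change of -0.00 ± 0.101 (FDR 0.991). The calls of these 6 members held under all 13 alternatives and without each of the 24 heifers in turn. The quasi-likelihood F test called 33 members beside 605 of all genes, and DESeq2 called 51 beside 1151 of all genes. Leaving out LPLE heifer 10 or LPHE heifer 16 gave 21 members.

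The other called members of complex I were NDUFA6, NDUFA10, NDUFAB1, NDUFB3, NDUFB5, NDUFB6, NDUFB9, NDUFS1, NDUFS4, NDUFS7 and NDUFV3, with log2 fold changes from -0.55 (NDUFA10) to -0.29 (NDUFV3). In complex III they were CYC1, UQCRB, UQCRC1, UQCR10 and UQCRQ, from -0.60 for CYC1 to -0.40 for UQCRQ, so the core protein UQCRC2 and the small subunit UQCR11 were the members of this complex not called. In complex IV they were COX1, COX5B, COX6A1, COX6C and COX8A, from -0.55 for COX1 to -0.35 for COX6A1. In complex V they were ATP5B, ATP5C1, ATP5G1 and ATP5J2, from -0.46 for ATP5J2 to -0.37 for ATP5C1. The coupling factor ATP5S had -0.09 ± 0.113 (FDR 0.764).

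**Figure D2:**
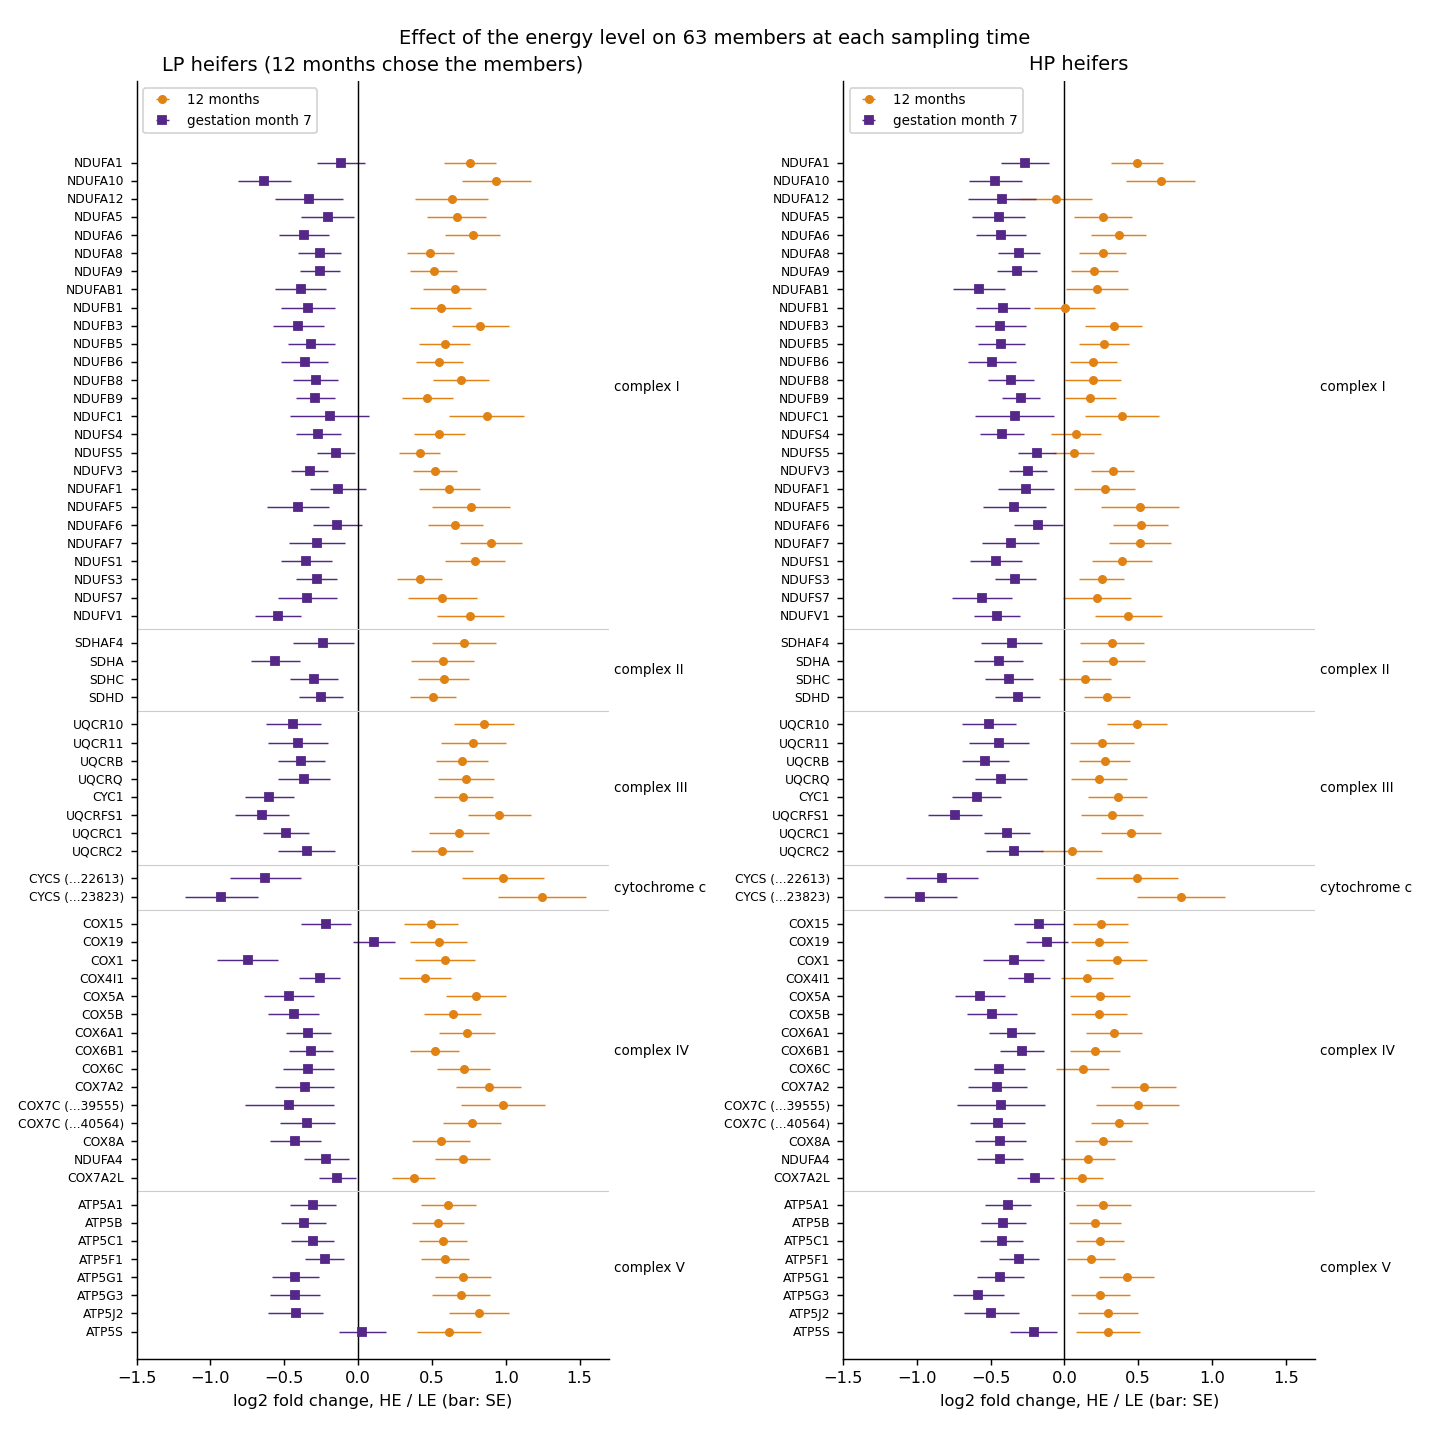
Log2 fold change of HE over LE heifers for 63 members, in LP heifers (left) and HP heifers (right), at 12 months (circles) and gestation month 7 (squares), with the SE of the model as bars. The LP contrast at 12 months chose the members. At gestation month 7 squares lie left of 0 for 61 of 63 members in LP heifers and for all 63 in HP heifers.

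The remaining members with values in every diet showed the same direction at gestation month 7. UQCRC1 had 99.8, 149 and 188 CPM in LPHE, 157, 214 and 240 CPM in LPLE, 118, 134 and 162 CPM in HPHE heifers and 152, 170 and 233 CPM in HPLE heifers. ATP5B had 450, 501 and 691 CPM in LPHE, 537, 667 and 825 CPM in LPLE, 446, 468 and 522 CPM in HPHE heifers and 491, 638 and 734 CPM in HPLE heifers. Both overlapped between the energy levels within each protein level. CYCS (ENSBTAG00000022613) had 2.47, 3.14 and 5.07 CPM in LPHE and 3.38, 5.19 and 7.86 CPM in LPLE heifers. COX7C (ENSBTAG00000039555) varied widely in LPHE heifers, with 3.84, 12.5 and 24.1 CPM against 12.6, 16.3 and 26.7 CPM in LPLE heifers. It had 11, 14.4 and 16.8 CPM in HPHE heifers and 6.1, 20.6 and 30.3 CPM in HPLE heifers, so its HPHE heifers lay within the range of the HPLE heifers. COX7C (ENSBTAG00000040564) had 19.7, 24.5 and 39.7 CPM in LPHE, 25.1, 31.4 and 43.6 CPM in LPLE, 17.7, 23.7 and 25.8 CPM in HPHE heifers and 24.1, 31.5 and 38.5 CPM in HPLE heifers.

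No member passed the test for a difference by the earlier protein level at gestation month 7. The likelihood ratio test called 0 of 64 members between HPHE and LPHE heifers (0.00746% of all genes) and 0 between HPLE and LPLE heifers (0.0746% of all genes). At an unadjusted p below 0.05 there were 1 and 0 members, beside 216 and 323 of all 13403 genes. The quasi-likelihood F test and DESeq2 called 0 members in both contrasts, with 2 members each in HE and 0 and 3 in LE heifers at that p. Of all genes the F test called 0 in both contrasts, and DESeq2 called 1 in HE and 4 in LE heifers. The log2 fold change of HP over LP was negative for 61 members in HE heifers (median -0.17) and for 55 in LE heifers (median -0.12). In HE heifers the values ran from -0.43 ± 0.245 (FDR 1) for CYCS (ENSBTAG00000023823) to 0.17 ± 0.3 (FDR 1) for COX7C (ENSBTAG00000039555). In LE heifers they ran from -0.38 ± 0.243 (FDR 1) for CYCS (ENSBTAG00000023823) to 0.20 ± 0.161 (FDR 1) for ATP5S. The test of whether the energy effect differed between protein levels at gestation month 7 called 0 members (0.00746% of all genes). An unadjusted p below 0.05 was seen for 0 members, beside 107 of all 13403 genes. The quasi-likelihood F test and DESeq2 also called 0 members, beside 0 and 1 of all genes, and gave 0 members at that p. The differences of LP minus HP ran from -0.40 ± 0.291 (FDR 1) for COX1 to 0.24 ± 0.252 (FDR 1) for NDUFA5. At 12 months the members had a median of -0.17 in HE and 0.22 in LE heifers for HP over LP, values that share the samples which chose the members.

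Between 12 months and gestation month 7 the members fell in HPHE heifers, and fewer of them passed the test in HPLE heifers. Age, pregnancy and the change to a common feed all separate the sampling times and cannot be told apart. In HPHE heifers 63 of 64 members fell, beside 15.9% of all 13718 genes called lower and 32.4% called in either direction, with a median log2 fold change of -1.07 against 0.04 for all genes. The count was 63 under all 13 alternatives. In complex III, UQCRB had the smallest p of all members and went from 75.8, 102 and 131 CPM to 34.8, 39 and 45.7 CPM (-1.38 ± 0.163, FDR 4.16e-14). COX1 went from between 36100 and 71800 CPM to between 11700 and 17500 CPM (-1.61 ± 0.2, FDR 6.66e-13). The ranges of UQCRB and COX1 did not overlap between the sampling times. In complex I, NDUFA10 went from 110, 182 and 223 CPM to 50, 52.4 and 67.6 CPM (-1.67 ± 0.212, FDR 2.16e-12). CYCS (ENSBTAG00000023823) fell most, by 2.30 on the log2 scale (SE 0.294, FDR 3.27e-12). ATP5C1, the gamma subunit that turns within the head of complex V, went from 178, 227 and 283 CPM to 100, 108 and 119 CPM (-1.07 ± 0.145, FDR 5.76e-11). SDHA fell by 1.36 (SE 0.189, FDR 1.67e-10). The assembly factor with the smallest p was NDUFAF7, a methyltransferase for complex I, which went from 26.8, 37 and 45.4 CPM to 10.8, 14.8 and 16.2 CPM (-1.40 ± 0.198, FDR 2.83e-10). COX19 was the member not called, with 120, 164 and 180 CPM at 12 months and 121, 144 and 164 CPM at gestation month 7 (-0.14 ± 0.162, FDR 0.55).

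In HPLE heifers 8 of 64 members fell, beside 1.05% of all genes called lower and 2.62% in either direction, with a median of -0.40. The log2 fold change was negative for 63 members, and 47 had an unadjusted p below 0.05, beside 1510 of all 13718 genes. Of the 8 called, 4 are complex IV members. COX1 went from 19400, 38900 and 47900 CPM to 12200, 20600 and 22700 CPM (-0.92 ± 0.197, FDR 0.00138). COX5A went from 63.1, 95 and 132 CPM to 48.7, 55.9 and 76.6 CPM (-0.70 ± 0.184, FDR 0.0154), COX5B from 143, 231 and 281 CPM to 116, 150 and 191 CPM (-0.56 ± 0.175, FDR 0.0658), and COX6A1 from 185, 245 and 301 CPM to 154, 166 and 201 CPM (-0.50 ± 0.165, FDR 0.0983). The others belong to complexes II and III. UQCRB went from 61.4, 83.8 and 101 CPM to 43.3, 55.2 and 69.5 CPM (-0.58 ± 0.16, FDR 0.0257). UQCRFS1 went from 112, 148 and 197 CPM to 68.1, 95.3 and 134 CPM (-0.64 ± 0.196, FDR 0.0622). UQCRC2 went from 12.4, 20.6 and 32.6 CPM to 11, 13.2 and 18.2 CPM (-0.61 ± 0.192, FDR 0.0691), and SDHA from 374, 616 and 933 CPM to 318, 411 and 501 CPM (-0.59 ± 0.187, FDR 0.0748). The ranges of these 8 members overlapped between the sampling times. COX19 had the highest value, 0.21 ± 0.162 (FDR 0.745). With the heifer as a block, which pairs the 2 biopsies of an animal, 18 members fell in HPLE heifers. Without the libraries above 10 CPM of muscle genes COX1, COX5A and UQCRB were still called, 3 in all.

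**Figure D3:**
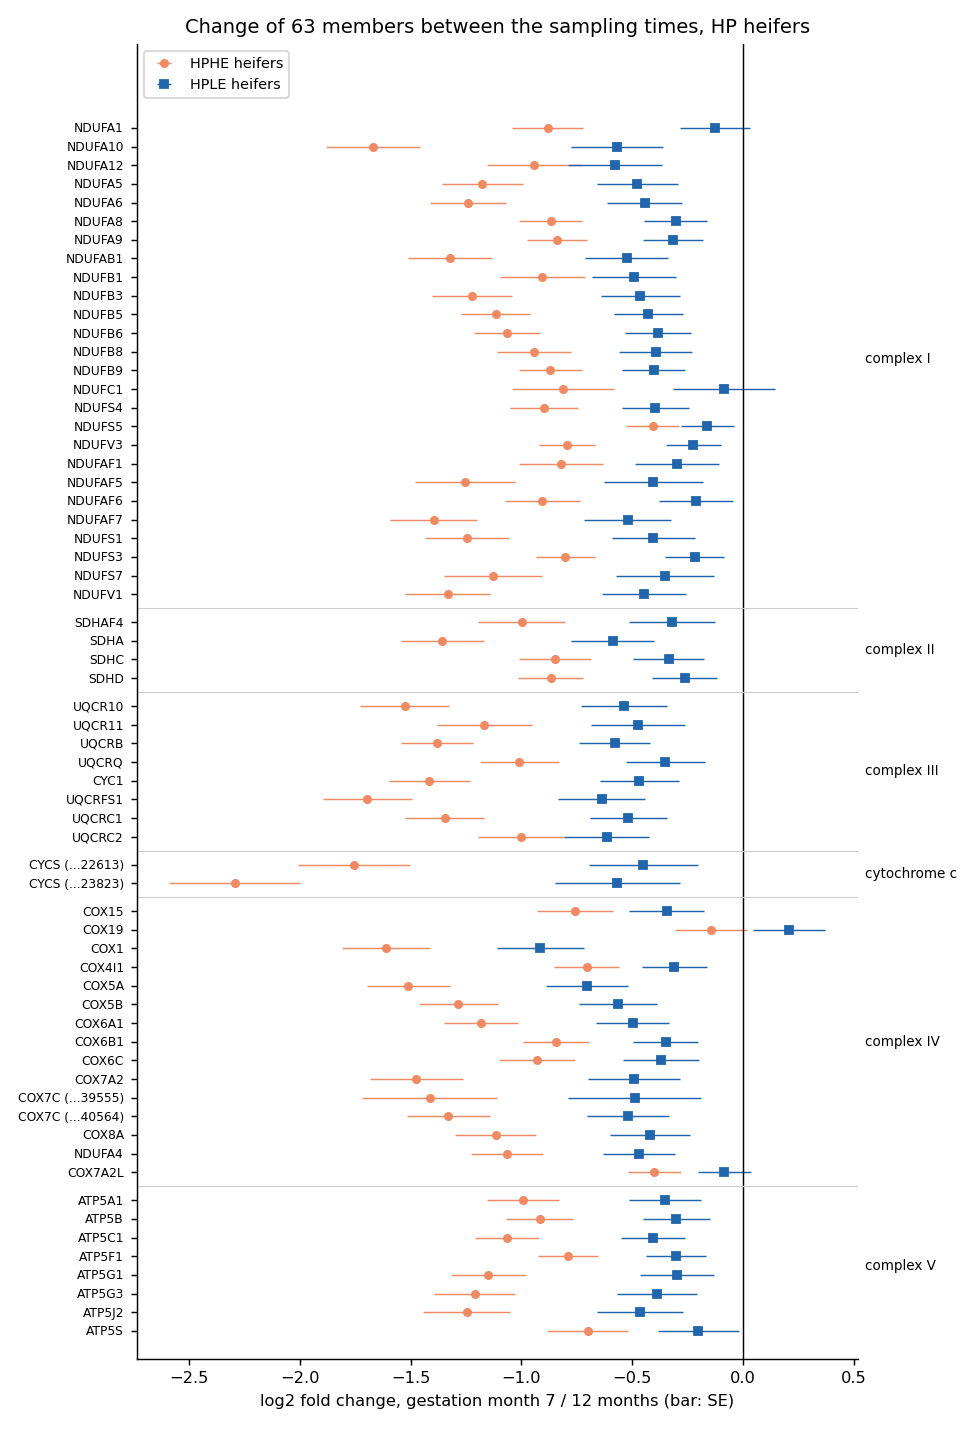
Log2 fold change of gestation month 7 over 12 months for 63 members in HPHE heifers (circles) and HPLE heifers (squares), with the SE of the model as bars. HPHE values lie below HPLE values for all 63 members shown, and COX19 lies near 0 in HPHE and above 0 in HPLE heifers.

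The change over time differed between HPHE and HPLE heifers for 17 of 64 members, all with a lower value in HPHE heifers, beside 1.05% of all genes called lower in this test. The log2 difference was negative for all 64, with a median of -0.69 against 0.03 for all genes. An unadjusted p below 0.05 was seen for 55 members, beside 1680 of all 13718 genes. The called members were 6 of 27 in complex I, 0 of 4 in complex II, 5 of 8 in complex III, both cytochrome c ids, 1 of 15 in complex IV and 3 of 8 in complex V. CYCS (ENSBTAG00000023823) had the largest difference, -1.73 ± 0.401 (FDR 0.00854). In complex III, UQCRFS1 had -1.06 ± 0.277 (FDR 0.0346), and CYC1, UQCRB, UQCRC1 and UQCR10 were also called. In complex I, NDUFA10 had -1.10 ± 0.294 (FDR 0.0379), and NDUFA1, NDUFA6, NDUFB6, NDUFV1 and NDUFV3 were also called. ATP5G1, another gene for the c subunit of complex V, had -0.85 ± 0.236 (FDR 0.05), with ATP5C1 and ATP5G3 called beside it. The called member of complex IV was COX7A2, with -0.98 ± 0.294 (FDR 0.0835). It went from 27.6, 52.4 and 81.5 CPM to 16.9, 17.8 and 24 CPM in HPHE heifers and from 24, 34.6 and 52.2 CPM to 20.7, 24 and 33.4 CPM in HPLE heifers. NDUFS5 had the value nearest to 0, -0.25 ± 0.169 (FDR 0.572). With the heifer as a block 41 members were called. The quasi-likelihood F test called 8 members beside 80 of all genes, and DESeq2 called 36 beside 418 of all genes.

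In LP heifers the changes over time share the samples that chose the members and are a description. The median log2 fold change was -1.12 in LPHE (range -2.09 to -0.08) and -0.10 in LPLE heifers (range -0.30 to 0.37). Within animals, 62 members were lower at gestation month 7 in all 6 LPHE heifers, 63 in all 6 HPHE heifers, 20 in all 6 HPLE heifers and 0 in all 6 LPLE heifers. The same count was not made over all genes, and nothing is read from these numbers. By the likelihood ratio test 15.9% of all genes were called lower in HPHE and 1.05% in HPLE heifers. COX1 had a median ratio of gestation month 7 to 12 months of 0.323 in LPHE, 0.774 in LPLE, 0.353 in HPHE and 0.543 in HPLE heifers. The ratio of CYCS (ENSBTAG00000023823) was 0.279 in LPHE, 1.07 in LPLE, 0.201 in HPHE and 0.569 in HPLE heifers. COX19 stood apart, with 0.91, 1.36, 0.865 and 1.18 in the same order of diets.

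**Figure D4:**
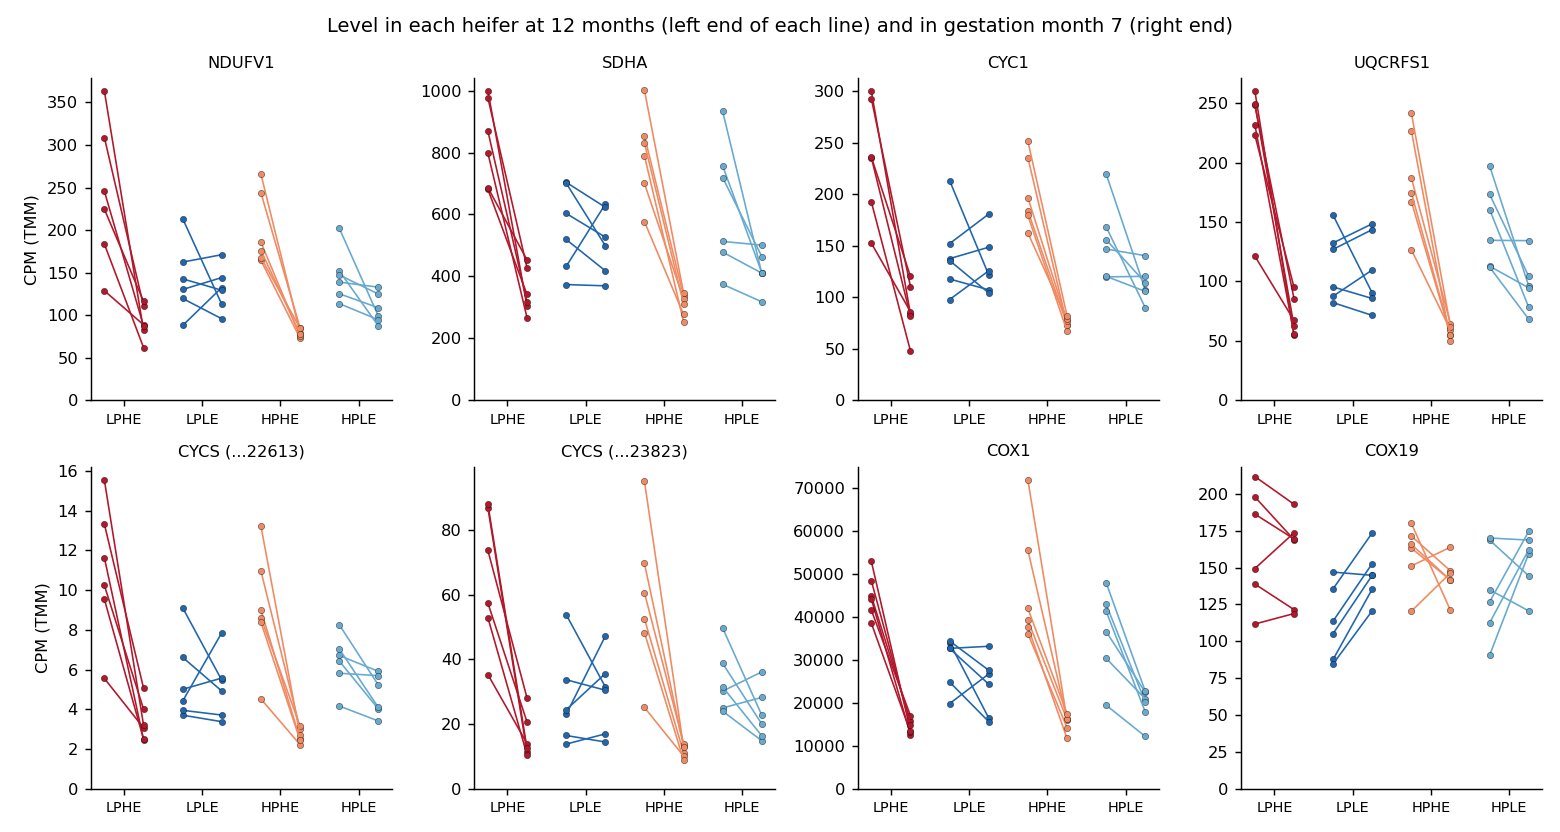
CPM of 8 members in each heifer at 12 months (left end of each line) and gestation month 7 (right end), by diet, with axes that start at 0. Lines fall in all 6 HPHE heifers in every panel but that of COX19, and LPLE heifers show lines in both directions.

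Within diets and sampling times the members moved together between heifers. After the mean of each group was taken off, the correlation of a member with the mean of the other nuclear members over 48 samples had a median of 0.796 and ranged from 0.49 for ATP5S to 0.947 for COX5B, and it was above 0.8 for 31 members. Beside ATP5S the lowest values were 0.548 for NDUFAF1, 0.569 for NDUFAF6 and 0.593 for COX15, which are assembly factors. These correlations are a description, since the samples come in pairs from a heifer and the members share their libraries. The same heifer was often the extreme of its group. Of the 63 nuclear members, 51 had their lowest LPHE value at 12 months in heifer 12 and 53 their highest LPHE value at gestation month 7 in heifer 20. In HPHE heifers at 12 months heifer 15 was lowest for 53 and heifer 19 highest for 50. In LPLE heifers at gestation month 7 heifer 18 was lowest for 41 and heifer 10 highest for 44.

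Differences between the genetic groups did not pass the test. The likelihood ratio test called 0 of 64 members between HMY and LCM heifers at 12 months (0.03% of all genes) and 0 at gestation month 7 (0.179% of all genes). An unadjusted p below 0.05 was seen for 0 members beside 1228 of all 13339 genes at 12 months, and for 7 beside 889 of all 13403 genes at gestation month 7. The quasi-likelihood F test and DESeq2 called 0 members at both times as well, with 0 members at that p at 12 months and 6 at gestation month 7 by each tool. Of all genes the F test called 0 at both times, and DESeq2 called 11 at 12 months and 67 at gestation month 7. The median log2 fold change of HMY over LCM was 0.05 at 12 months and 0.11 at gestation month 7, when it was positive for 59 members. At 12 months the values ran from -0.19 ± 0.146 (FDR 0.703) for NDUFAF1 to 0.37 ± 0.2 (FDR 0.567) for COX7C (ENSBTAG00000039555). At gestation month 7 they ran from -0.12 ± 0.136 (FDR 0.971) for NDUFAF7 to 0.48 ± 0.173 (FDR 0.46) for CYCS (ENSBTAG00000023823).

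Other genes of mitochondrial energy metabolism with a symbol in the study's tables were also measured, and since those tables were selected on these heifers their directions are not independent evidence. In the energy contrast over both protein levels at gestation month 7, 6 of 8 genes of the tricarboxylic acid cycle, which supplies the chain with NADH and succinate, were lower in HE heifers and none was higher, beside 2.66% of all genes called lower. The smallest p among them were those of MDH2, malate dehydrogenase (-0.58 ± 0.123, FDR 0.000416), CS, citrate synthase (-0.52 ± 0.117, FDR 0.00115), and OGDH, oxoglutarate dehydrogenase (-0.50 ± 0.114, FDR 0.00136). All 4 carriers and channels for ATP, phosphate and metabolites, SLC25A3, SLC25A4, VDAC1 and VDAC2, were lower. SLC25A4, which exchanges ATP for ADP across the inner membrane, was lower by 1.23 (SE 0.22, FDR 1.19e-05). The mitochondrially encoded ND5 of complex I (-0.45 ± 0.122, FDR 0.0131) and COX2 of complex IV (-0.44 ± 0.127, FDR 0.02) were lower too. Of 6 further assembly factors BCS1L, which inserts the Rieske protein into complex III, was lower (-0.48 ± 0.135, FDR 0.0184), and neither SSBP1 nor LRPPRC, which maintain mitochondrial DNA and RNA, was called. ATP5IF1, the inhibitor of complex V, had -0.26 ± 0.101 (FDR 0.136). Among 10 respiratory chain ids listed without a symbol, 1 was lower. Between the sampling times in HPHE heifers all 8 genes of the cycle, all 4 carriers, ND5, COX2, the 6 assembly factors, SSBP1, LRPPRC, ATP5IF1 and the 10 ids without a symbol fell, beside 15.9% of all genes called lower. In HPLE heifers ND5, COX2, IDH3B and SLC25A4 fell, beside 1.05% of all genes called lower. The change over time differed between HPHE and HPLE heifers for MDH2, IDH3B, OGDH, SLC25A3, SLC25A4, BCS1L and COA3, each with a lower value in HPHE heifers. In this test too 1.05% of all genes were called lower. MDH2, IDH3B and OGDH are among the 8 genes of the cycle and SLC25A3 and SLC25A4 among the 4 carriers and channels. BCS1L and COA3 are among the 6 further assembly factors.

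Markers of the cell types in the tissue were read from the same tables, which list genes that differed between HE and LE heifers at 12 months. Markers without such a difference have no id here, so those left do not stand for a whole cell type. The lists for macrophages and leukocytes, endothelium, epidermis, erythrocytes and thermogenic adipocytes had 0 genes with an id. The adipocyte markers with an id were CIDEC, a lipid droplet protein, and LEP, which encodes leptin, 2 of 6 in the list, and the stroma markers were COL1A1, COL3A1 and DCN, 3 of 4. None of the adipocyte, stroma or muscle genes was called in the energy contrasts of gestation month 7 by the likelihood ratio test. Summed adipocyte markers then ranged from 1390 to 2340 CPM in LPHE, 1780 to 2610 in LPLE, 983 to 2160 in HPHE and 1210 to 2800 CPM in HPLE heifers, and overlapped between all diets. Summed stroma markers ranged from 14200 to 47800 CPM in LPHE, 25300 to 34900 in LPLE, 14300 to 63000 in HPHE and 17400 to 71500 CPM in HPLE heifers. At 12 months adipocyte markers ranged from 2050 to 3360 CPM in LPHE and 888 to 2610 in LPLE heifers. Stroma markers ranged from 13500 to 41600 in LPHE and 26600 to 67900 CPM in LPLE heifers. LEP was called higher in LPHE heifers, beside 4.45% of all genes, and all 3 stroma and 4 muscle genes lower. This contrast chose most genes of those tables, so nothing is read from these calls. In HP heifers at 12 months adipocyte markers ranged from 2150 to 3380 CPM in HPHE and 1280 to 2820 CPM in HPLE heifers, and stroma markers from 17500 to 38400 CPM and 22500 to 47400 CPM. No marker was called in this contrast, although both adipocyte markers had a positive log2 fold change (LEP 1.14 ± 0.361, FDR 0.301, and CIDEC 0.50 ± 0.23, FDR 0.605) and all 3 stroma markers a negative one (median -0.50). Of these 5 genes 4 had an unadjusted p below 0.05, beside 965 of all 13339 genes. Between the sampling times in HPHE heifers CIDEC fell by 0.77 (FDR 0.00268) and DCN rose by 0.85 (FDR 0.00168). Of all genes 32.4% were called there in either direction. LEP (-0.475, FDR 0.344), COL1A1 (0.866, FDR 0.107) and COL3A1 (0.485, FDR 0.23) were not called in HPHE heifers. In HPLE heifers LEP rose by 1.14 (FDR 0.0869), beside 2.62% of all genes called in either direction. CIDEC did not rise with it, with a mean of 1680 CPM at 12 months and 1590 CPM at gestation month 7. Summed muscle genes (4 of 10 in the list) reached 263 CPM in an HPHE library of gestation month 7 and stayed below 10 CPM in all LPHE libraries. MYH2, a myosin of skeletal muscle, was called higher in HP than in LP heifers at gestation month 7 (FDR 0.022 in HE and 0.0766 in LE heifers) and in HMY than in LCM heifers (FDR 1.28e-05), with a median of 0.16 CPM in HPHE heifers and 0 CPM in the other diets. The part of these cell types in the levels of the members was not tested.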

How the data were processed

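RNA from 48 biopsies was sequenced after preparation with the Illumina TruSeq RNA kit, which does not mark strand, and samples were distributed at random over lanes. The lanes are not given in the labels, so no batch was fitted. The authors trimmed paired reads with Cutadapt 1.3, aligned them to the bovine assembly UMD3.1 with TopHat2 2.0.12 and used HTSeq-count to assign reads to Ensembl genes. The deposited counts are unnormalized. Summary rows of the counting tool (a median of 43.0% of all counts) name no gene and were left out. Depth was 14815595 to 61027456 counts on genes per sample. Apart from members with few reads, the spread between heifers, not counting noise, limited the precision. No other annotation was used, and symbols were taken from the study's tables.

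Expressed genes, defined by a CPM of 2 or more in 3 or more samples of a fit, were kept: 13339 at 12 months, 13403 at gestation month 7 and 13718 over both. Library sizes were scaled with TMM, and glmFit with tagwise dispersions was run in edgeR 4.0.16 under R 4.3.3. The 24 samples of a sampling time were fitted with dietary treatment and genetic group, and comparisons of sampling times used all 48 samples with diet by time and genetic group. Each contrast had a likelihood ratio test, whose p-values over all genes tested were turned into an FDR by the Benjamini-Hochberg procedure (threshold 0.1, or 0.05 over both protein levels). The SE is the log2 fold change divided by the root of the likelihood ratio. Single genes were compared with exact permutation tests of the mean log2(CPM + 0.5), 40 in all. Overlap between diets was judged on TMM-normalized CPM for the members and on CPM without TMM for the shares of all genes.

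The members and the gene lists were chosen with earlier results of these data known. Members are named once. A single member and 1 gene of another list are not reported here by name and the member is not plotted on its own. Statistics are given for all called members of a comparison if 12 or fewer, otherwise for the called member with the smallest p in each complex, and for the members with the highest and lowest fold change. Values in every diet are given for the member with the highest mean CPM in complexes II to V, COX1, CYCS and COX7C. For genes of other lists the called ones are named where 5 or fewer, otherwise the 3 with the smallest p.

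Biopsies of the same animal share the heifer number in the labels, so the numbers pair the samples: deviations from the group means correlated with a median of 0.304 between the 2 biopsies of a heifer (range -0.0563 to 0.581, above 0.1 in 20 of 24 heifers). Alternatives tried were the quasi-likelihood F test, DESeq2 1.42.0, other size factors, other filters, no genetic group, another FDR, other sets of samples, the heifer as a block and each heifer left out in turn. Added after the data were seen were dispersions from estimateDisp, dispersions shrunk to the common dispersion and the omission of libraries with over 10 CPM of summed muscle genes. The functions were tested on simulated counts. In these the likelihood ratio test and DESeq2 called more unchanged genes than their nominal FDR, and the quasi-likelihood F test came closest to it, so calls with an FDR near the threshold are less certain than that value.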

Additional observations from a re-analysis of the deposited data

Results flagged for a closer look

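In LPHE heifers at 12 months the ATP5B value of heifer 12, 717 CPM, stood far below the next lowest of the 6 heifers (1010 CPM, median 1060). It was the single case among 72 groups of 6 heifers, over 9 members, that passed Dixon's criterion for a distant value, where chance gives about 1 in 20 groups.

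The energy effect differed between the sampling times in HP heifers, by the energy by time term of the model. A total of 17 members passed this test, beside 1.05% of all genes called lower, and 6 to 41 members passed it over the 13 alternatives run for it. Among the 17 were CYCS (ENSBTAG00000023823) with a log2 difference of -1.73, UQCRFS1 with -1.06, NDUFA10 with -1.10, ATP5G1 with -0.85 and COX7A2 with -0.98. For each of them the HPHE heifers had the higher mean level at 12 months and the lower mean level at gestation month 7. At 12 months none of the members was called between HPHE and HPLE heifers by the likelihood ratio test. An unadjusted p below 0.05 was seen for 11 of them, beside 965 of all 13339 genes.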

How the results depend on the processing

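The median log2 fold change of the members kept its sign under every alternative run for every comparison except genetic group at 12 months, where it went from 0.05 to -0.035 without the libraries above 10 CPM of muscle genes. Of 41 results on single named members 0 changed sign under any alternative. Counts of called members depended on the test, and so did those of all genes. At gestation month 7 the quasi-likelihood F test called 0 of all genes between energy levels within either protein level. In LP heifers at gestation month 7 the 7 members called became 0 with the quasi-likelihood F test, 12 with DESeq2, 1 at an FDR of 0.05, 3 without TMM, 2 without genetic group, 2 with dispersions shrunk to the common dispersion and 1 with all 48 samples in the fit, and 0 to 14 without each heifer in turn. In HP heifers the 8 became 0 with the quasi-likelihood F test, 3 at an FDR of 0.05, 3 without the filter on low counts, 3 with the common dispersion, 1 with all 48 samples and 2 without the muscle libraries, and 0 to 17 without each heifer. Over both protein levels the 32 became 51 with DESeq2 and 18 with the common dispersion, and 21 to 48 without each heifer. The time effect in HPLE heifers gave 3 members in place of 8 at an FDR of 0.05 or without the muscle libraries, 14 with DESeq2 or estimateDisp, 13 with the HP samples alone and 18 with the heifer as a block. The difference of the time effects gave 6 in place of 17 at an FDR of 0.05 or with the common dispersion, 8 with the quasi-likelihood F test, 36 with DESeq2, 7 without TMM, 29 with the HP samples alone and 41 with the heifer as a block, which pairs the biopsies of a heifer. The block left the count of 63 in HPHE heifers as it was. The cause of these changes was not tested. Where heifers or libraries were left out, the number of samples was also smaller. The comparisons with 0 called members stayed at 0 under every alternative. Apart from members with few reads, the spread between heifers, not depth, limited these results. Lane could not be fitted, and p-values rest on 6 heifers per diet.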
